A study of Homo sapiens with 2 samples.

Results

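The genes described here are those whose symbol in the deposited expression table is LINC followed only by digits, the naming scheme for long intergenic noncoding RNAs. By that rule 56 of 13075 genes were members, and LINC00657 (NORAD) was left out. No measured value entered the choice. The material came from HEK293 cells, an established human embryonic kidney line, transfected with TOP3B that carried a FLAG tag and the R338W substitution. Both samples were at passage 15. The RIP (RNA immunoprecipitation) library came from a native precipitation with the M2 monoclonal antibody to FLAG, and the input library from such transfected cells with no antibody used. Each group had 1 library, so no difference has a replicate check and no p-value was computed. No precipitation from untagged cells was used here, so binding to the beads or antibody cannot be told apart from binding to the protein. TOP3B itself, which includes the transfected copy, was at 30666 FPKM in the RIP against 15062 in input.

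Long intergenic noncoding RNAs are transcribed mostly by RNA polymerase II, and are capped, often spliced and usually polyadenylated. Many stay in the nucleus near their own locus, some act on a neighbouring gene, and others reach the cytoplasm and bind ribosomes. A few were later found to be translated into small proteins, and their genes were renamed. TOP3B is a topoisomerase that acts on RNA as well as DNA by cutting a strand and staying attached to it for a time, and the series asked which RNAs carry such cleavage complexes. The R338W form is known to stay trapped on the strand it cuts.

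The label of intergenic noncoding RNAs held for a part of the members only. In GENCODE 29 (GRCh38, the same assembly as hg38), 44 members were annotated as long noncoding, 6 as protein-coding and 6 as transcribed pseudogenes. Of the 56 members, 22 overlapped a protein-coding gene, 12 of them on the same strand and 10 on the opposite strand. A further property was sequence shared with other genes. In 26 members some of the longest transcript, in blocks of at least 100 bases, matched a transcript of another gene at 95% identity or more, and in 11 at least 50% of it did. Some of the matching genes lie at the member's own locus and strand, as RHOF does for LINC01089. Fragments from such stretches can be assigned to either gene, so the values of these members are uncertain. The libraries were made with a kit that keeps strand, but whether the counting used strand is not given in the sources used here, so overlapping genes may share fragments too.

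3 pairs show how close copies at separate loci are. They are printed because the members in them lie at the top of the ranking or among the highest levels. Each stretch is 90 bases of exon sequence of the RNA strand from the GENCODE 29 transcripts, and capitals mark the bases that differ within the pair. LINC00894 lies at chrX:149945858-149945947 (plus strand) and LINC00893 at chrX:149534285-149534374 (minus strand), LINC00152 at chr2:87584251-87584340 (plus) and MIR4435-2HG at chr2:111366493-111366582 (minus), and LINC00969 at chr3:195664102-195664191 (plus) and the pseudogene SDHAP1 at chr3:195984171-195984260 (minus).
LINC00894: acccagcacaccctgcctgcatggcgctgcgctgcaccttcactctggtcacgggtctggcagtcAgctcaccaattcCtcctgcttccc
LINC00893: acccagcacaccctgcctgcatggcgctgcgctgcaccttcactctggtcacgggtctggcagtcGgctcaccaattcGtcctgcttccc
LINC00152: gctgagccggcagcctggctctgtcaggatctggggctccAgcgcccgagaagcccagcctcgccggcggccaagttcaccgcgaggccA
MIR4435-2HG: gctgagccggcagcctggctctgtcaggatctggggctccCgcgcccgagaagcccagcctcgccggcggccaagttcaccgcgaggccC
LINC00969: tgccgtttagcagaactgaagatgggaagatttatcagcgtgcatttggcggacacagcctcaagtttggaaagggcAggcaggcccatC
SDHAP1: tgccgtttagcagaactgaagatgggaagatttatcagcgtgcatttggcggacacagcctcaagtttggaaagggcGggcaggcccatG

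The longest aligned stretch of each pair was 829 bases at 97.23% identity for LINC00894 and LINC00893, 2254 bases at 99.25% for LINC00152 and MIR4435-2HG, and 1924 bases at 99.17% for LINC00969 and SDHAP1. The windows above are the first of 90 bases in each that hold at least 2 differing bases and no gap.

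For each of the 6 members annotated as protein-coding, the longest complete annotated reading frame was taken. These frames hold 59 to 265 codons, and the 3 shortest of them are printed. Shorter frames of the same gene were not looked at, so an encoded protein may be smaller than its frame here. Capitals mark the start and stop codons. SMIM30, named LINC00998 in the table, has its frame at chr7:113117399-113117578 (minus strand), NBDY (LINC01420) at chrX:56729354-56729560 (plus) and SMIM26 (LINC00493) at chr20:18567479-18569405 (plus, spliced). They hold 59, 68 and 95 codons before the stop.
SMIM30: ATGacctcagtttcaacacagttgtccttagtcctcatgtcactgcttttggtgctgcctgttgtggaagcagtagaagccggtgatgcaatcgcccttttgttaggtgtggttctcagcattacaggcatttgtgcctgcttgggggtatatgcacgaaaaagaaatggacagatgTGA
NBDY: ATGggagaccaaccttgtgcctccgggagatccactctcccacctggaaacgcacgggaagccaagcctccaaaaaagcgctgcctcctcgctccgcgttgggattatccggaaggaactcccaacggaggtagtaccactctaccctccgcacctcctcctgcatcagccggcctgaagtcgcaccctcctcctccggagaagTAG
SMIM26: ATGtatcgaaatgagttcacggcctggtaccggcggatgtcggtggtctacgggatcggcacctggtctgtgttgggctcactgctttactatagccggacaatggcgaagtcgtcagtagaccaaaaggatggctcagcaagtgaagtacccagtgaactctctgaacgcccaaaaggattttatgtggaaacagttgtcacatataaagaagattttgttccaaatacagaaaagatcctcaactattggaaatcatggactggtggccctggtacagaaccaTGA

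The table gives FPKM, that is fragments per kilobase of transcript and scaled to the library's total. Its sums were 1090243 FPKM in the RIP against 1512049 in input, and the depths estimated from the steps of low values were 24600000 and 15200000 fragments. Ratios are given as log2((RIP + 1)/(input + 1)). A floor of 5 FPKM, to be reached in either library, left 11990 genes for the counts, with a median ratio of 0.13 and quartiles of -0.25 and 0.50. RNA classes of short noncoding, ribosomal and mitochondrial RNA took 48.3% of the RIP FPKM sum and 67.4% of the input sum. Bringing both libraries to the same sum outside those classes shifted the median gene by -0.18 log2. The sums used for this kept TOP3B, at 30666 FPKM in the RIP against 15062 in input. The part of TOP3B in the shift was not tested.

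Most LINC-named RNAs were present at low levels in both libraries. Of the 56 members, 34 were under 10 FPKM in both, and all 56 together summed to 816 FPKM in the RIP against 721 in input. Outside the abundant classes they made up 0.145% of the RIP sum and 0.146% of the input sum, and of the whole sums 0.0748% and 0.0477%. The 8 highest members took 54.3% of the members' RIP sum and 52.7% of their input sum, and 7 were among the 8 highest in both. Across the 56 members, levels in the RIP and in the input had a Spearman rho of 0.81, a description across genes of these 2 libraries.

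**Figure D1:**
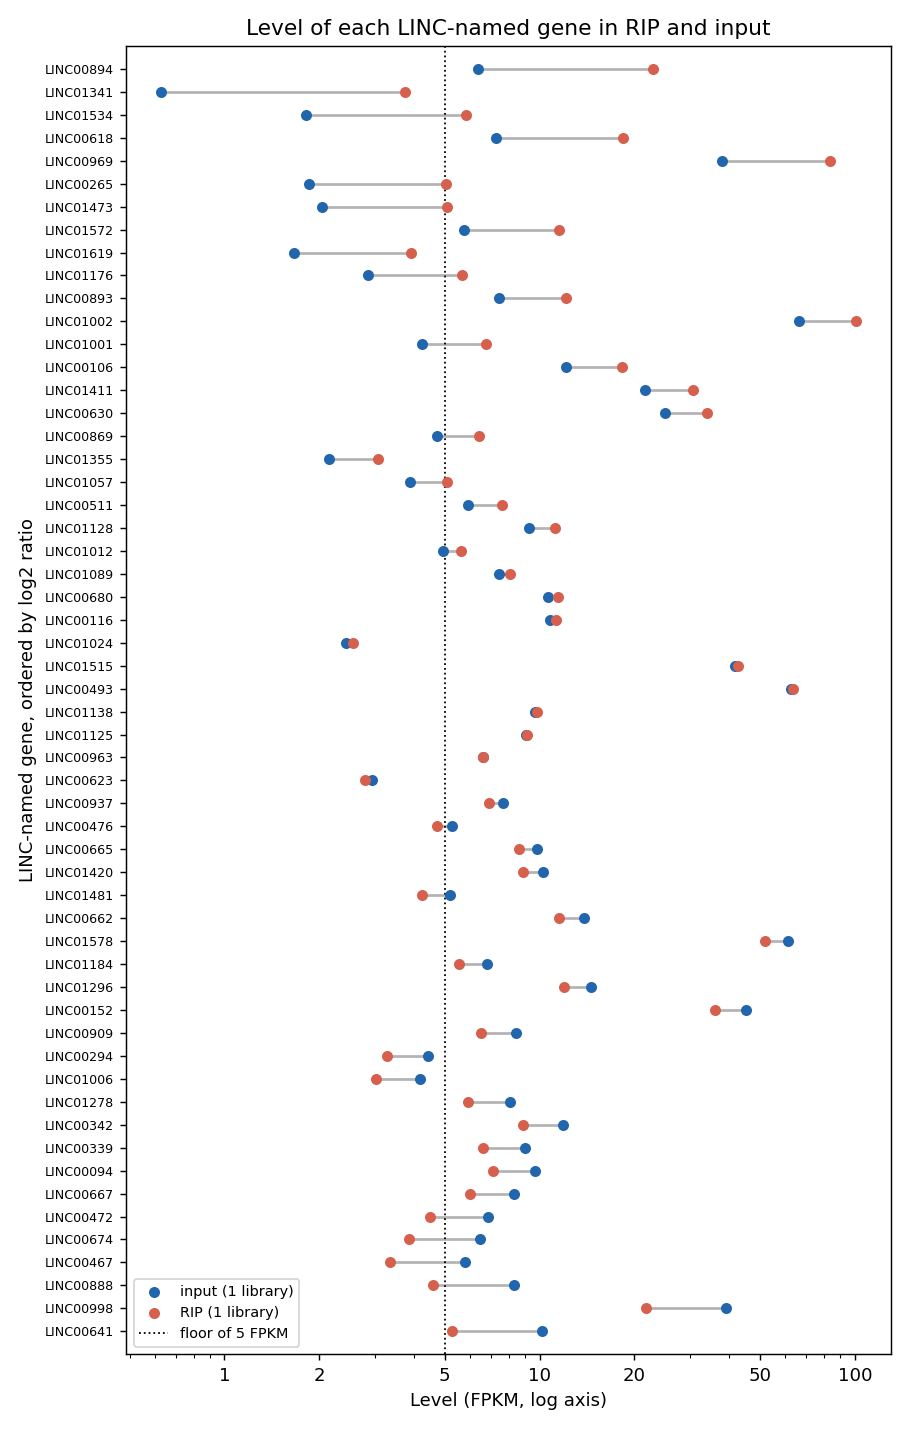
Level in FPKM on a log axis of each of the 56 LINC-named genes in the RIP library and the input library, ordered by log2 ratio, with the floor of 5 FPKM dotted. LINC00894 at the top stood at 22.86 FPKM in the RIP against 6.39 in input, and LINC00641 at the bottom at 5.27 and 10.15.

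Of the 56 members, 49 passed the floor. In 35 both libraries were at or above 5 FPKM, in 8 only the RIP was and in 6 only the input was. A member that passed through 1 library alone had to be higher there, so counts over the 49 are descriptions. Among them 6 exceeded the input 2-fold or more (12.2%), where 4.90% of all genes did, and 0 were at least 2-fold lower, where 2.50% of all genes were. Relative to the median gene 3 members passed the 2-fold limit upwards and 0 downwards, against 3.04% and 3.75% of all genes. After rescaling without the abundant classes 3 were higher and 2 lower, against 2.50% and 4.41% of all genes. At a 1.5-fold limit 10 members were higher and 5 lower, against 19.9% and 10.2% of all genes. At a 4-fold limit 0 members were higher and 0 lower, against 0.659% and 0.701%.

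The median member lay under the median gene by less than the members' own spread, and at a floor of 20 FPKM it lay above it (0.23 against 0.21). Over the 49 past the floor of 5 FPKM the median ratio was 0.02, with quartiles of -0.32 and 0.48, and 30 lay below the median of all genes and 19 above. Over all 56 members the median was 0.02 as well, with 31 ratios above 0 and 25 below. Counting error was set beside each ratio as an exact binomial (Clopper-Pearson) 95% interval of log2(RIP/input), with no pseudocount, from estimated fragments. That interval lay above 0 in 14 of the 49, below 0 in 11 and across 0 in 24, where it lay above 0 in 43.0% and below 0 in 24.8% of the 11778 genes with estimated fragments. Set against the median gene, at 0.13 on this scale, it lay above in 12 members and below in 17, against 34.4% and 32.3% of those genes. The members' median level in the RIP was 8.05 FPKM and that of all genes 19.1 FPKM, and the part of level in these counts was not tested. Every interval given for a gene is of this kind. It covers counting error only, not the spread between experiments, and fragment numbers used the median annotated transcript length and are approximate.

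**Figure D2:**
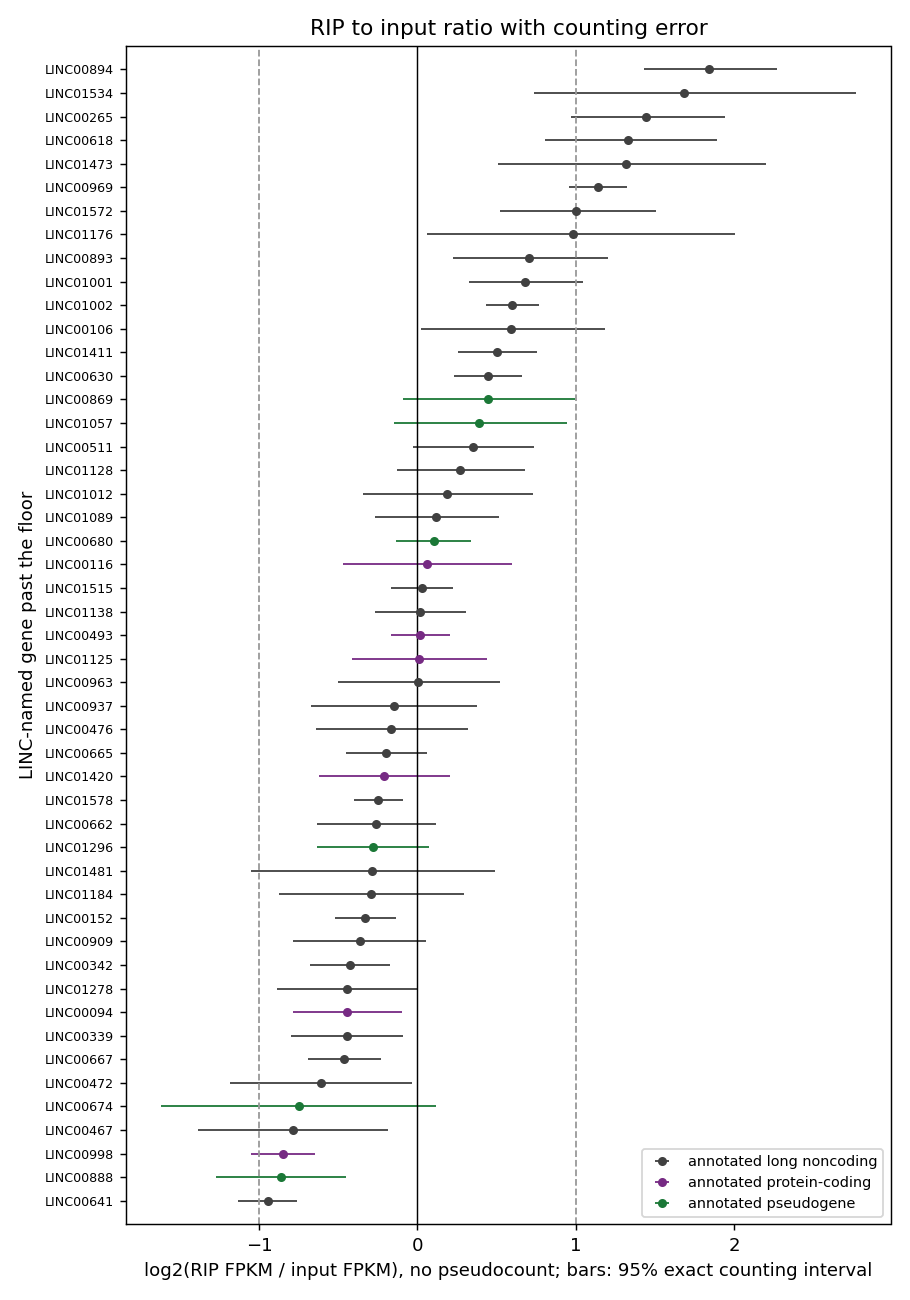
log2 of RIP FPKM over input FPKM, without pseudocount, for the 49 LINC-named genes past the floor, with bars for the 95% exact counting interval and dashed lines at 2-fold. The interval of LINC00894, from 1.43 to 2.27, is the only 1 that lies wholly beyond 2-fold.

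The 6 members past the upper 2-fold limit came from 6 chromosomes. LINC00894 (ENSG00000235703.5, chromosome X, 149938628 to 150224580, plus strand) is annotated opposite to the gene CXorf40B. It stood at 22.86 FPKM in the RIP against 6.39 in input, a log2 ratio of 1.69, or 3.58-fold without pseudocount, on about 329 and 56.8 fragments. LINC00893, the copy of it shown above, stood at 12.15 and 7.45 FPKM, a log2 ratio of 0.64. Of the longest LINC00894 transcript 51.5% matched LINC00893, so the values of the pair cannot be fully told apart.

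LINC00969 was the only 1 of the 6 among the 8 highest members. It is annotated as MUC20-OT1 on chromosome 3 (195658062 to 195739964, plus strand), on the same strand as the mucin gene MUC20. LINC00969 stood at 83.38 FPKM in the RIP against 37.86 in input, a log2 ratio of 1.12 with a counting interval of 0.96 to 1.33. SDHAP1, which matches 53.9% of the longest LINC00969 transcript, stood at 32.9 and 11.49 FPKM. LINC00969 and its copy were both higher in the RIP, but their values cannot be fully told apart.

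LINC00618 and LINC00265 also share sequence with other genes. LINC00618 (chromosome 14, 96931367 to 96945394, plus strand) lies on the same strand as VRK1, a nuclear protein kinase gene. It stood at 18.35 FPKM in the RIP against 7.29 in input, a log2 ratio of 1.22. VRK1 stood at 79.35 and 49.83 FPKM, a log2 ratio of 0.66, and 27.3% of the longest LINC00618 transcript matched it. That match lies at the shared locus of the overlapping genes and is not a copy elsewhere. LINC00265 (chromosome 7, 39733632 to 39793092, plus strand) stood at 5.05 and 1.86 FPKM, a log2 ratio of 1.08, and 77.2% of its longest transcript matched other genes, mostly the pseudogene GTF2IP13.

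LINC01534 and LINC01473 had no match to another gene, but rested on few fragments. LINC01534 (chromosome 19, 36685440 to 36687449, minus strand) starts 163 bases from the zinc-finger gene ZNF567 on the opposite strand. It stood at 5.86 FPKM in the RIP against 1.82 in input, on about 56.0 and 10.8 fragments, a log2 ratio of 1.28 with a wide interval of 0.74 to 2.77. LINC01473 (chromosome 2, 186032891 to 186083233, minus strand) lay just inside the limit at 5.08 and 2.04 FPKM, a log2 ratio of 1.00 on about 66.2 and 16.4 fragments. LINC01572, just outside it, stood at 11.55 and 5.77 FPKM, a log2 ratio of 0.89. LINC00265, LINC01534 and LINC01473 were at 5 FPKM or more in the RIP alone.

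No member was 2-fold lower in the RIP, and the lowest were LINC00641 and LINC00998. LINC00641 (chromosome 14, 21200079 to 21206900, minus strand), 2236 bases from the splicing-factor gene HNRNPC, stood at 5.27 FPKM in the RIP against 10.15 in input. Its log2 ratio was -0.83, on about 445 and 528 fragments, with an interval of -1.13 to -0.76. It has no match to another gene. LINC00998, the gene of the small membrane protein SMIM30 printed above, stood at 21.68 and 39.1 FPKM, a log2 ratio of -0.82 with an interval of -1.05 to -0.65. After rescaling their log2 ratios were -1.01 and -1.01, just past the 2-fold limit that they did not reach on the deposited scale. The rescaling sums included the transfected TOP3B, whose part in passing that limit was not tested.

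Members on a list of genes reported to encode small proteins had ratios below that of the median gene. Of 12 genes on that list, 6 were measured and all 6 passed the floor, with a median ratio of -0.29. Below the median of all genes lay 6 of 6, and 30 of all 49 members past the floor. The counting intervals of LINC00116 (-0.47 to 0.60), LINC00493 (-0.16 to 0.20) and LINC01420 held the median gene, at 0.13 on that scale. Those of LINC00094, LINC00467 and LINC00998 lay below it. LINC00493 (SMIM26, a mitochondrial protein) stood at 63.73 FPKM in the RIP against 62.91 in input, and LINC00116 (MTLN, a protein of the inner mitochondrial membrane) at 11.27 and 10.82. LINC01420 (NBDY, which binds mRNA decapping factors) stood at 8.88 and 10.28 FPKM, with an interval of -0.62 to 0.20 that spans 0. LINC00094 (BRD3OS), which overlaps BRD3 on the opposite strand, stood at 7.1 and 9.66 FPKM, a log2 ratio of -0.40. LINC00467 stood at 3.36 and 5.79 FPKM, a log2 ratio of -0.64, on about 47.6 and 50.8 fragments. SMIM30 was the lowest of the list and LINC00116 the highest, at 0.05.

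Members known as regulators, or followed in tumours, lay mostly below the median gene, as did most members. Of 19 on that list 6 were measured, with a median ratio of -0.21. Of these 6, 5 lay below the median of all genes and LINC00511 above it. Below that median also lay 30 of all 49 members past the floor and 267 of 436 other long noncoding genes. LINC01578, known as CHASERR, represses in cis the chromatin remodeller gene CHD2 that lies downstream of it. LINC01578 (chromosome 15, 92882707 to 92899701, plus strand) stood at 51.92 FPKM in the RIP against 61.56 in input, a log2 ratio of -0.24 with an interval of -0.40 to -0.09. CHD2, looked up for this reason, stood at 142.04 and 64.68 FPKM, a log2 ratio of 1.12, so the neighbours lay on opposite sides of the input.

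LINC00152, known as CYTOR and often raised in tumours, stood at 35.94 FPKM in the RIP against 45.17 in input, a log2 ratio of -0.32. MIR4435-2HG, near-identical to it over the stretch printed above, stood at 30.94 and 39.72 FPKM, a log2 ratio of -0.35. Less than 50% of the longest LINC00152 transcript matched MIR4435-2HG. Fragments from the matching part can be assigned to either gene, so these close values are not independent. LINC00511, LINC00662, LINC00665 and LINC00963, all described as raised in tumours, had log2 ratios of 0.30, -0.24, -0.18 and 0.00. The counting intervals of all 4 spanned 0.

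The remaining members among the highest levels had ratios from 0.03 to 0.59, level with or above the input on the deposited scale. LINC01002, annotated near the end of chromosome 19 (198264 to 239440, minus strand), was the highest in both libraries at 100.72 FPKM in the RIP against 66.47 in input, a log2 ratio of 0.59. Every base of its longest transcript matched other genes, 16 in number. LINC01001, another such gene near the end of chromosome 11, stood at 6.77 and 4.22 FPKM, a log2 ratio of 0.57. LINC01515 stood at 42.65 and 41.79 FPKM, and LINC00630 at 33.91 and 24.92. LINC01411 stood at 30.58 and 21.58 FPKM, a log2 ratio of 0.48 with an interval of 0.26 to 0.75. Nearest to equal among the 20 highest members by input were LINC01138 (9.82 and 9.69 FPKM), LINC00493, LINC01515, LINC00116 and LINC00680 (11.4 and 10.62 FPKM).

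Members outside the named groups spread on both sides of the input. LINC00888 stood at 4.58 FPKM in the RIP against 8.31 in input, a log2 ratio of -0.74, and LINC00667 at 6 against 8.27, with intervals of -1.27 to -0.45 and -0.69 to -0.23 that lay below 0. LINC00106 on chromosome X stood at 18.21 FPKM in the RIP against 12.09 in input and LINC01176 at 5.66 against 2.86, with intervals that reached down to 0.02 and 0.06. LINC01125, annotated as the coding gene C2orf92, had 9.14 and 9.08 FPKM, with an interval of -0.41 to 0.44.

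Of the members past the floor 5 hold an annotated microRNA gene within their span, and their ratios went both ways. LINC00969 holds MIR570 and had the highest of the 5 ratios, 1.12. LINC00472 on chromosome 6, host of MIR30A and MIR30C2 of the miR-30 family, had the lowest, -0.52, at 4.50 FPKM in the RIP against 6.87 in input. LINC01057 (MIR378G), LINC01138 (MIR5087) and LINC00152 (MIR4435-1) had 0.32, 0.02 and -0.32. The values are of the host genes, and the mature microRNAs were not measured here.

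The 7 members below the floor were not counted above. LINC01341 stood at 3.74 FPKM in the RIP against 0.63 in input, on about 39.5 and 4.12 fragments, a log2 ratio of 1.54 with an interval of 1.10 to 4.52. LINC01619 stood at 3.9 and 1.66 FPKM, a log2 ratio of 0.88. The other 5 (LINC01355, LINC01024, LINC00623, LINC00294 and LINC01006) had log2 ratios from -0.36 to 0.37. LINC00294, just outside the floor at 4.42 FPKM in the input, stood at 3.27 in the RIP.

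Ratios were set beside properties of the members that the naming rule did not use. GC content of the longest transcript had a Spearman rho of 0.40 with the ratio across the 49 members, against 0.22 across 436 other long noncoding genes. Members above the median GC content of 47.4% had a median ratio of 0.18 and those at or below it -0.24, with 17 of 24 and 10 of 25 ratios above 0. Those counts include members that passed the floor in the RIP alone or the input alone, where the sign was fixed. Exon number had a rho of 0.34. Median transcript length had -0.28, against 0.04 across the other long noncoding genes. Input level, which enters the ratio itself, had -0.28, against -0.47 across the others. These are correlations across genes within 1 pair of libraries and carry no p-value.

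Members made largely of sequence shared with other genes had higher ratios than the rest, in a grouping chosen after the values were seen. The 10 past the floor with a match of at least 50% had a median ratio of 0.58, with 8 above 0. These genes are not independent, as LINC00894 and LINC00893 match each other, and LINC01001 and LINC01002 have the same best match. Both of these pairs lay above 0. Of the 10, LINC00265, LINC01001 and LINC00869 passed the floor in the RIP alone and so had to lie above 0. LINC00674 passed it in the input alone and had to lie below 0. The groups with a smaller match or none hold such members too. Across the 49 members the matched share of the transcript had a rho of 0.20 with the ratio. The 15 with a smaller match had -0.13 and the 24 with none -0.09, with 12 of the 24 above 0. The 10 also had a higher median GC content, 52.2% against 46.0% in those with no match, and the parts of GC content and shared sequence in the ratios were not tested. LINC00674, with 50% shared with SMURF2, and LINC00342, with 100% shared, went the other way at -0.62 and -0.39.

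**Figure D3:**
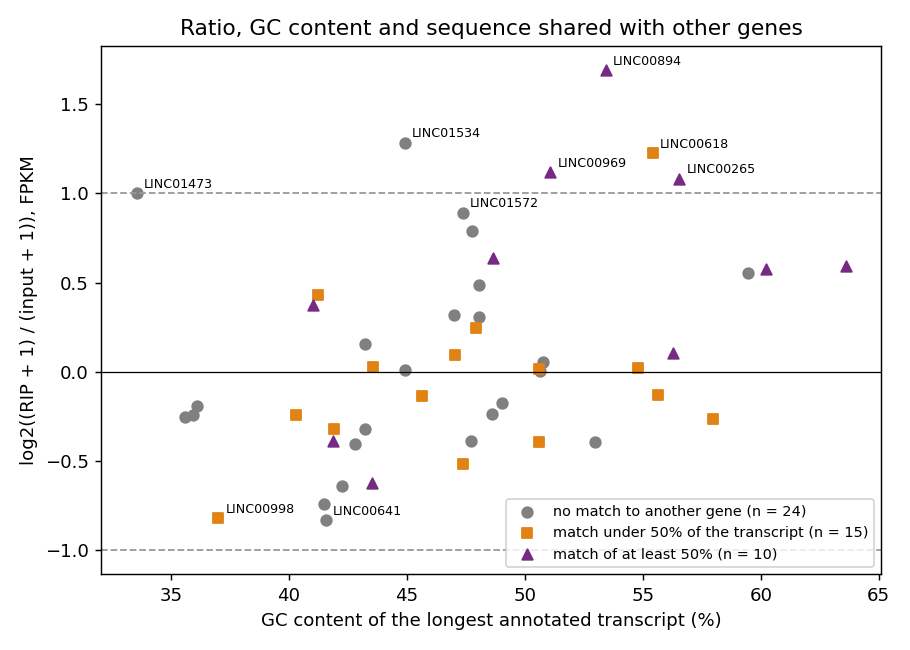
log2 ratio of the 49 LINC-named genes past the floor against GC content of the longest annotated transcript in percent, with the symbol showing how much of it matches another gene. Of the 10 genes with a match of at least 50%, 8 lie above 0, some of which passed the floor in the RIP alone. Genes beyond 0.8 in either direction are named.

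Members were also grouped by annotated class and by position. Of the 49 members past the floor 37 were annotated as long noncoding, with a median ratio of 0.03. These 37, which are most of the members, included all 6 that were 2-fold higher. The 6 protein-coding members had -0.09 and the 6 pseudogenes -0.08. Members that overlapped no coding gene had 0.03 (n = 31 genes), those overlapping one on the same strand 0.06 (10 genes) and on the opposite strand -0.21 (8 genes). The ratio of a member and that of its nearest measured coding gene had a rho of 0.12 across the 49.

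Other noncoding genes were set beside the members, of which 12.2% were at least 2-fold higher and 0 lower. Of 436 other long noncoding genes 56 were at least 2-fold higher (12.8%) and 32 at least 2-fold lower (7.34%), with a median of -0.13. Relative to the median gene 47 of them were higher and 51 lower, and after rescaling 44 and 58. The balance of higher and lower calls thus turned with the scaling. At least 50 fragments left 407 of these genes, with 49 higher and 25 lower. The class also holds rows that carry names of short noncoding RNAs, such as SCARNA10 at -1.69 and SCARNA2 at 2.88. Of 110 antisense genes named with AS and a number, 6 were higher and 1 lower, with a median of -0.12, against 3 and 3 relative to the median gene and 2 and 3 after rescaling. Of 20 rows from a list of 25 well-known noncoding RNAs, 0 were higher and 1 lower, with a median of -0.42. TERC, the telomerase RNA, was the lower 1 at 8.65 and 21.27 FPKM. The 20 rows hold 19 symbols, as RMRP appears under more than 1 identifier. LINC00657, left out of the members, is on this list at -0.73 and also among the 436 other long noncoding genes. Protein-coding genes had a median of 0.15. No test of these differences was possible with 1 library a group.

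**Figure D4:**
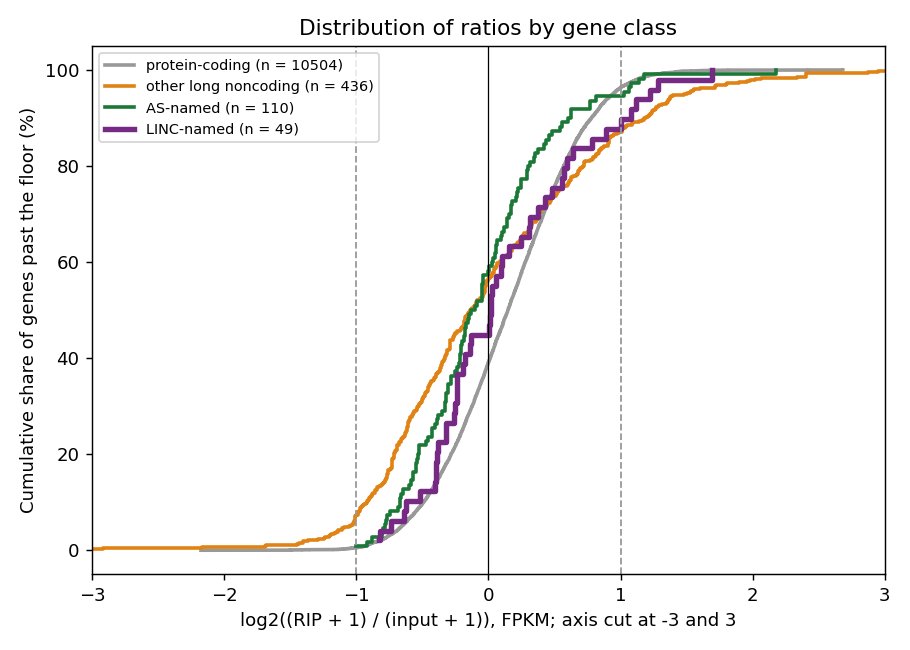
Cumulative share in percent of genes past the floor against log2((RIP + 1)/(input + 1)) for LINC-named, AS-named, other long noncoding and protein-coding genes, with dashed lines at 2-fold. The LINC-named curve starts at -0.83, while 7.34% of the other long noncoding genes lie at least 2-fold below the input on the deposited scale.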

How the data were processed

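RNA was measured in 1 RIP and 1 input library. Per the submitters' processing notes, cutadapt 1.18, Trimmomatic 0.3, STAR 2.6.1, RSEM 1.2.31 and build hg38 were used. The sources used here give no settings, annotation release or cut for low genes. The authors deposited 1 table with 1 value per gene and library, read as FPKM because its decimals, its unequal sums and the steps of its low values have that form. Symbols split over columns (36 rows) were rejoined.

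Depth was estimated by searching for the depth and fragment length that put genes with 1 annotated transcript closest to whole fragments. This gave 24600000 fragments of 167 bases for the RIP and 15200000 of 165 bases for the input, with 63.3% of 147 genes and 65.7% of 274 genes within 0.15 of a whole number. Depths are therefore estimates. Annotation was GENCODE 29, matched by Ensembl identifier for 12983 genes (99.3%) and for 56 of 56 members, 41 of them with the same version number. Shared sequence was found with BLAST 2.17.0 on the longest transcript, same strand. The depth search and the 2-fold calls were run on simulated data with changes far larger than 2-fold. Calls near that limit and genes that share sequence were not tested in this way. Named genes were every member past the floor and the 2-fold limit, the 8 highest per library, the 5 nearest to 0 among the 20 highest by input, measured members of both lists, and those at the limits. The other members, CHD2 and the copies were named after their values were seen. Members, lists and alternatives were chosen with earlier results of these data known. Calculations used Python 3.11.15, numpy 2.4.6, scipy 1.17.1, pandas 2.3.3 and matplotlib 3.10.9.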

Additional observations from a re-analysis of the deposited data

How the results depend on the processing

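No paired analysis was possible because neither condition was repeated. Scaling meant for counts (TMM, DESeq2) was left out, as the values are FPKM. Depth limits members with few fragments most. The cause of each change below was not tested, beyond fewer genes entering under a stricter rule.

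The 2-fold limit was passed upwards by 6 members and downwards by 0. The higher count was 2 with pseudocount 5, 2 with a floor of 20 FPKM (10 members), 10 at 1.5-fold, 0 at 4-fold, 3 centred on the median gene and 3 rescaled without abundant classes. It was 2 over members with no match to another gene and 3 over those with no coding overlap, both added after seeing the data. The lower count was 5 at 1.5-fold and 2 rescaled, with TOP3B kept in the rescaling sums. The members' median of 0.02 ranged from -0.17 (rescaled) to 0.23 (floor of 20 FPKM) over the settings run.

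All genes, with 588 higher, 300 lower and a median of 0.13, gave 300, 181 and 0.10 with pseudocount 5, and 352, 157 and 0.21 with a floor of 20 FPKM. They gave 2386 and 1222 at 1.5-fold, 79 and 84 at 4-fold, 365, 450 and 0.00 when centred, and 300, 529 and -0.055 rescaled. At least 50 fragments left 129 lower, and coding genes alone gave 384, 56 and 0.15. Medians of other long noncoding, AS-named and protein-coding genes were -0.25, -0.25 and 0.23 with a floor of 20 FPKM, -0.26, -0.24 and 0.020 centred, and -0.31, -0.29 and -0.034 rescaled. Coding genes had 0.12 with pseudocount 5. The regulator list had -0.34 centred and -0.39 rescaled. Of single-gene values 98 moved by less than about 50% of the width of the gene's counting interval and 6 by more. LINC00116, LINC00493, LINC00680, LINC00963, LINC01138 and LINC01515, all within 0.094 of 0 as reported, were below 0 both centred and rescaled. No named gene at least 2-fold apart changed sign.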
